A study of Arabidopsis thaliana with 11 samples.

Results

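The nad and ccb genes of the Arabidopsis mitochondrial genome were represented on the ATH1 array by 19 probe sets for 12 genes. They were taken as every probe set annotated to exactly 1 mitochondrion-encoded gene with a lower-case symbol beginning with nad or ccb, out of 13513 probe sets naming 1 gene (13350 genes) among 22810 probe sets on the array. The 8 nad genes were nad1 (7 probe sets), nad5 (2 probe sets), nad2, nad4, nad4L, nad6, nad7 and nad9. The 4 ccb genes were ccb203, ccb206, ccb382 and ccb452, listed in RefSeq as ccmFN2, ccmB, ccmFN1 and ccmFC. All 19 matched the mitochondrial record of RefSeq (TAIR10.1) by symbol or synonym. Of the 19, nad5 257338_s_at, nad6 (244953_s_at) and ccb452 (244951_s_at) carry the s_at suffix of probe sets that can match several transcripts. Whether their signals come from these genes alone was not tested. A further 2 probe sets name nad1 together with a locus on chromosome 2 and were counted apart, without being assigned to nad1.

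Plant mitochondria keep a small genome, and most mitochondrial proteins are made in the cytosol from nuclear genes. The nad genes encode subunits of complex I, the NADH dehydrogenase that passes electrons to ubiquinone and pumps protons. The proteins of nad1, nad2, nad4, nad4L, nad5 and nad6 sit in its membrane arm, and those of nad7 and nad9 in its peripheral arm. The ccb genes encode parts of the machinery that attaches heme to cytochromes of the c type, which carry electrons in the later part of the chain. In Arabidopsis the messages of nad1, nad2 and nad5 are joined from separate precursors by trans-splicing, and mitochondrial messages are edited from C to U. Stable poly(A) tails are not the rule on these messages, and how the RNA was primed for labelling is not given in the sources used here.

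The series holds 11 arrays of total RNA from wild-type Columbia-0 plants (stock N1092), 1 biotin-labelled RNA per array. Flowers, meaning opened flowers together with closed buds, gave 4 arrays, and the uppermost stem without siliques and pedicels gave 4 arrays, both at 29 days after germination. Rosette leaves gave 3 arrays at 15 days, so leaf differs from the other tissues in age as well as in organ. Every sample was labelled with a 16 h photoperiod, 125 µmol of light per square metre and second, 25 °C by day and 20 °C by night. The titles carry a code, GH or GC. Flower and stem had 2 GH and 2 GC arrays each, and leaf had 2 GH arrays and 1 GC array. Only the leaf GH samples are described as greenhouse plants, while the flower and stem GH samples carry the same growth description as the GC samples, so what the code stands for in those tissues is not settled by the labels. The labels do not call the samples of a group separate plants. P-values therefore speak only for the variation among these arrays, part or all of which may be technical.

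Of 9 tissue marker genes checked, 8 had all arrays of their labelled tissue above all arrays of the other tissues. The exception was the leaf gene HPR (hydroxypyruvate reductase), whose highest stem array overlapped the leaf arrays. These markers were chosen with earlier results of these data known, so their order is a description and no test of the labels. The array stem GH 1 stood apart in RNA quality: its actin 3′ to 5′ ratio was 19.6, and its mean log2 3′ over 5′ ratio over 3 control genes was 2.13. On the other 10 arrays that mean lay between 0.53 and 0.90 in flower, 0.01 and 0.24 in stem, and -0.24 and 0.09 in leaf.

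Values are signals from the MAS5 algorithm on a linear scale, each array scaled to the same trimmed mean, and 1 probe set's signal is not comparable with another's. A signal was called dim at or below 28.1, the 40th percentile of all values. A probe set entered the tests if it exceeded that limit on at least 3 of the 11 arrays, as 15718 did. Among the nad and ccb probe sets 16 passed, for 10 genes. The 3 that did not pass were nad2, nad7 and nad1 257327_at, dim on all 11 arrays, and 7 exceeded the limit on every array (nad4, nad9, ccb206, ccb382, ccb452, nad1 257321_at and nad1 257322_at). A probe set that passed mainly through a tissue where it was high had to differ between tissues, so counts over the 16 are descriptions. Every leaf array was dim for nad1 257325_at, nad1 257329_at, nad5 257338_s_at, nad6 and ccb203. These passed through flower or stem arrays alone, so any calls of theirs against leaf are descriptions too. Below, signals of a tissue are listed in the order GH 1, GH 2, GC 1 and GC 2 (leaf: GH 1, GH 2 and GC 1).

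The complex I gene nad4 had the highest fold in flower against leaf among the 7 probe sets that were never dim. Its signals were 166, 348, 238 and 190.5 in flowers, 219, 170.4, 232 and 204 in stems, and 66.9, 141 and 69.2 in leaves. All flower and all stem arrays lay above all leaf arrays, and leaf GH 2 was the highest leaf array. nad4 was 2.65-fold higher in flower than in leaf (log2 difference 1.40 ± 0.30 SE, adjusted p = 0.00316, limma) and 2.40-fold higher in stem than in leaf (1.26 ± 0.30, adjusted p = 0.00535). Both calls held with each array left out, but within the GH arrays alone the differences were 1.31 (adjusted p = 0.0757) in flower and 0.99 (adjusted p = 0.147) in stem. Leaving out leaf GC 1 and stem GH 1 at once also ended the stem call (1.02, adjusted p = 0.0835).

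**Figure D1:**
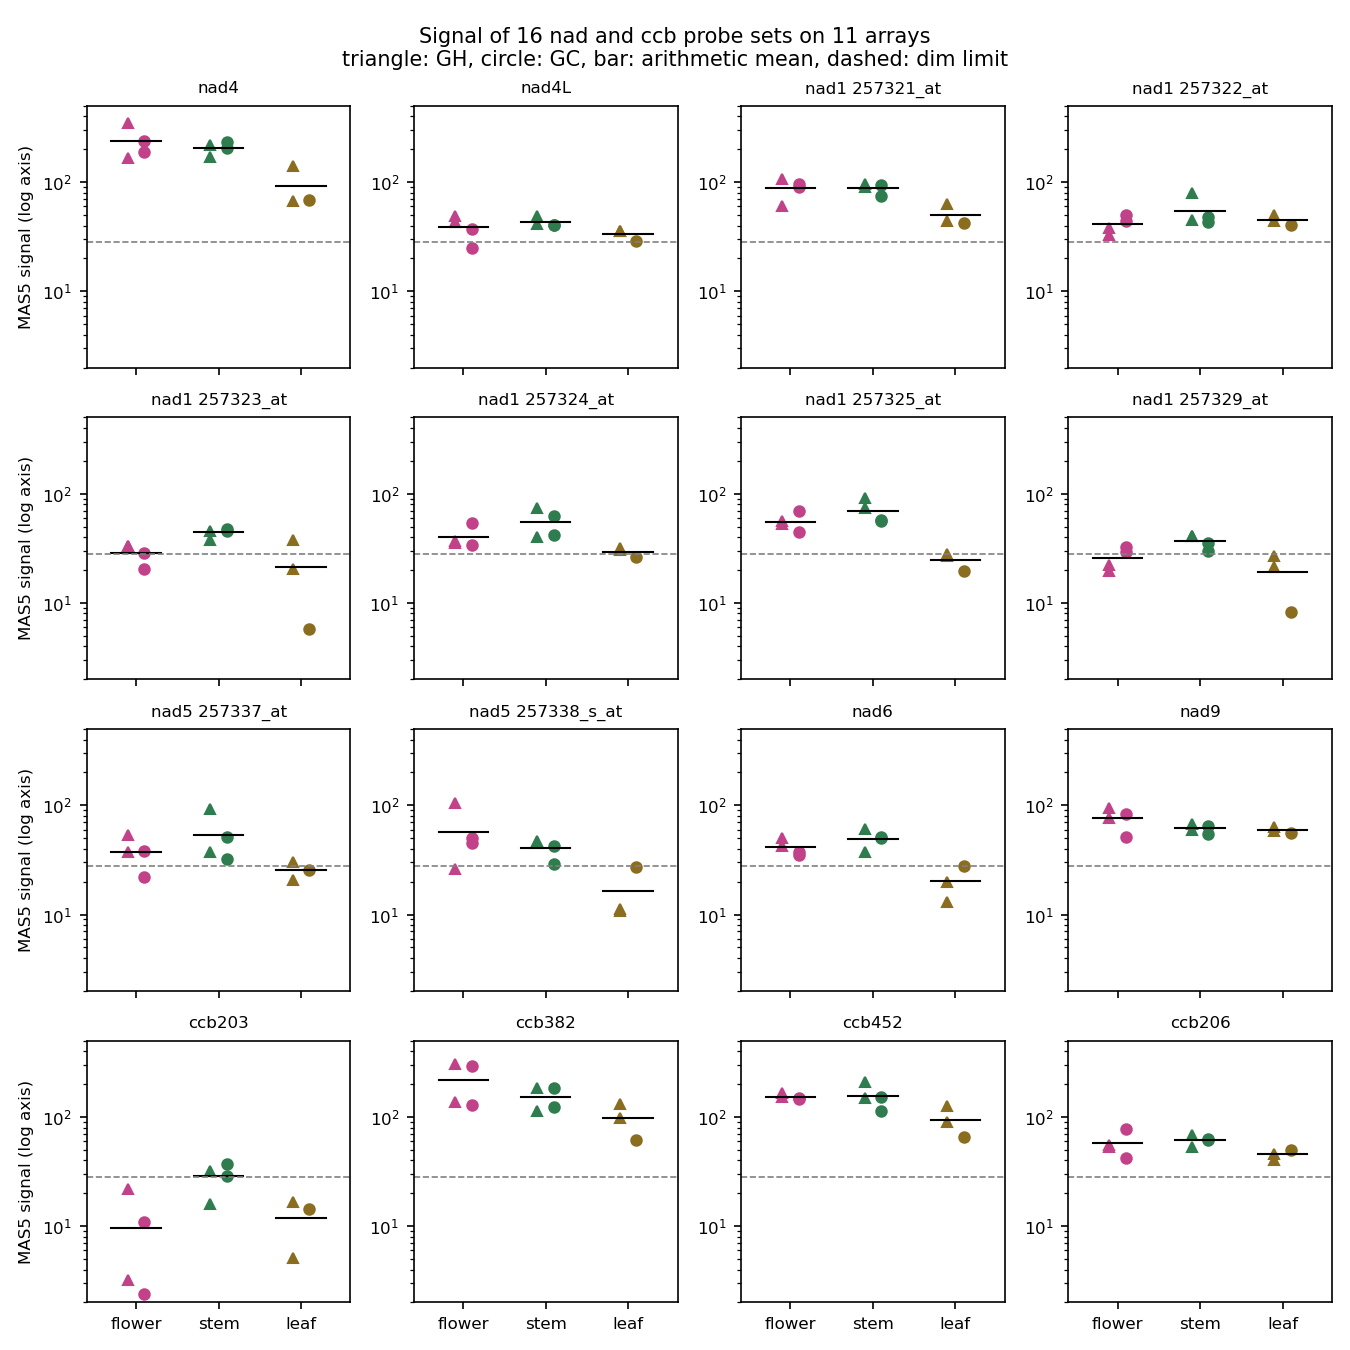
MAS5 signal (log axis) of the 16 nad and ccb probe sets that entered the tests, by tissue. Triangles are GH arrays, circles GC arrays, bars the arithmetic mean of a tissue (4 flower, 4 stem and 3 leaf arrays), and the dashed line is the dim limit of 28.1. The nad4 panel shows every flower and stem array above every leaf array, while in the nad4L and nad9 panels the flower and leaf arrays overlap. Panels are not comparable in height with each other.

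The membrane-arm subunit gene nad4L lies close to the dim limit, and no tissue difference passed the test. Its signals were 42.8, 48.9, 25.1 and 37.4 in flowers, 48.9, 41.5, 40.5 and 40.2 in stems, and 35.3, 35.8 and 29.2 in leaves. The stem arrays all lay above the leaf arrays, whereas the flower arrays spanned the leaf range and 1 of them was dim. The log2 difference was 0.23 in flower against leaf (95% interval -0.29 to 0.75, adjusted p = 0.494) and 0.42 in stem against leaf (-0.10 to 0.93, adjusted p = 0.191). With quantile normalization the flower value turned to -0.10.

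For nad6, another membrane-arm subunit gene, every leaf array was dim and every flower and stem array was not. Signals were 42.8, 49.7, 37.1 and 35.2 in flowers, 60.3, 37.2, 51.1 and 49.8 in stems, and 20.0, 13.0 and 27.6 in leaves. Where a tissue is dim on every array only a bound is given, the mean log2 signal of the brighter tissue taken against the dim limit. An adjusted p printed beside a bound belongs to the fitted difference and not to the bound. nad6 was at least 1.45-fold higher in flower (mean 41.2 against 20.2 in leaf, adjusted p = 0.0176) and at least 1.74-fold higher in stem (mean 49.6, adjusted p = 0.00474). The flower call was lost without leaf GH 2, without flower GH 1 or without flower GH 2 (adjusted p up to 0.0764), and the stem call held with each array left out. Quantile normalization also ended the flower call (limma, 0.71, adjusted p = 0.0929), as did the 3′ over 5′ ratio as a covariate (0.76, adjusted p = 0.104).

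The nad5 probe sets, both for a large membrane-arm subunit, gave different calls in flower. Signals of nad5 257338_s_at were 26.0, 105, 45.2 and 50.2 in flowers, 45.3, 47.0, 29.1 and 42.7 in stems, and 10.8, 11.2 and 27.0 in leaves. The leaf arrays were all dim, all stem arrays lay above them, and flower GH 1 overlapped leaf GC 1. This probe set was at least 1.78-fold higher in flower than in leaf (adjusted p = 0.0137) and at least 1.43-fold higher in stem than in leaf (adjusted p = 0.0319). The flower call was lost without leaf GH 1 or leaf GH 2 (adjusted p up to 0.0537). The stem call was lost without leaf GH 1, leaf GH 2, stem GC 2, stem GH 1 or stem GH 2 (adjusted p up to 0.108). With signals floored at the dim limit both calls were lost (limma, 0.89, adjusted p = 0.0556, in flower and 0.56, adjusted p = 0.228, in stem).

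Signals of nad5 257337_at were 37.4, 53.5, 37.8 and 21.9 in flowers, 91.7, 37.6, 32.3 and 51.6 in stems, and 30.5, 20.9 and 25.3 in leaves. Only 1 leaf array exceeded the dim limit, and the stem arrays all lay above the leaf arrays. The probe set was 2.04-fold higher in stem than in leaf (1.03 ± 0.37, adjusted p = 0.0438) and did not pass in flower (0.58, 95% interval -0.23 to 1.38, adjusted p = 0.247). Its stem call was lost in 8 of 11 fits with 1 array left out, those without any 1 leaf array, flower GC 1, flower GH 1, flower GH 2, stem GC 2 or stem GH 1 (adjusted p up to 0.153). Without the dim filter that call was not made either (limma, adjusted p = 0.0648).

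The 6 tested nad1 probe sets, for another membrane-arm subunit, did not give 1 answer for the gene. In flower against leaf 2 of them were higher (limma, adjusted p under 0.05), where 21.3% of all tested probe sets were. In stem against leaf 5 were higher, where 17.9% of all tested probe sets were. Without the filter the counts were 2 and 3 of all 7 nad1 probe sets, where 14.9% and 12.5% of all probe sets were higher. The lowest adjusted p in both comparisons was that of nad1 257325_at, which passed the filter through flower and stem arrays alone. Its signals were 56.2, 52.8, 44.3 and 69.2 in flowers, 74.6, 90.7, 56.6 and 56.9 in stems, and 28.0, 26.8 and 19.7 in leaves. All 3 leaf arrays were dim and lay below every flower and stem array. It was at least 1.95-fold higher in flower (mean 55.6 against 24.8 in leaf, adjusted p = 0.00171) and at least 2.43-fold higher in stem (mean 69.7, adjusted p = 0.000343). Without the filter both calls were also made (limma, adjusted p = 0.00315 in flower and 0.000586 in stem). Among the 18 calls made on nad and ccb probe sets in the tissue comparisons, its stem call alone held under every alternative run. Its flower call was lost within the GC arrays (adjusted p = 0.0510).

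The probe set nad1 257321_at was never dim, and its signals were 60.2, 107, 95.2 and 89.5 in flowers, 91.1, 96.5, 74.8 and 93.5 in stems, and 43.7, 63.4 and 42.1 in leaves. Stem arrays all lay above leaf arrays, while flower GH 1 fell within the leaf range. It was 1.77-fold higher in flower (0.83 ± 0.24, adjusted p = 0.0177) and 1.83-fold higher in stem (0.87 ± 0.24, adjusted p = 0.0124) than in leaf. The flower call was lost without leaf GC 1, leaf GH 1 or flower GH 2 (adjusted p up to 0.0893), and the stem call without leaf GC 1 or leaf GH 1 (up to 0.0691). Quantile normalization also ended the flower call (limma, 0.59, adjusted p = 0.0814).

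Calls of 3 further nad1 probe sets were made in stem only, and each was lost when certain arrays were left out. Signals of nad1 257323_at were 33.3, 33.1, 28.7 and 20.6 in flowers, 37.8, 45.5, 45.8 and 47.6 in stems, and 20.4, 37.6 and 5.77 in leaves, with 1 of 3 leaf arrays above the dim limit. The lowest leaf array, GC 1, set much of its difference from stem, 1.53 ± 0.46 (adjusted p = 0.0192) with that array and 0.74 (adjusted p = 0.147) without it. Without leaf GH 2, the highest leaf array, the flower difference passed (adjusted p = 0.0355).

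For nad1 257324_at the signals were 35.6, 37.2, 33.9 and 53.7 in flowers, 73.3, 40.2, 42.0 and 63.0 in stems, and 30.4, 31.5 and 26.5 in leaves. Flower and stem arrays all lay above the leaf arrays, yet only the stem difference passed (0.85 ± 0.29, adjusted p = 0.0345, against 0.42 ± 0.29, adjusted p = 0.279, in flower). The stem call was lost without any 1 leaf array, without stem GC 2 or without stem GH 1 (adjusted p up to 0.133). For nad1 257329_at they were 19.7, 22.0, 29.5 and 32.5 in flowers, 40.6, 40.8, 35.5 and 29.9 in stems, and 27.1, 21.5 and 8.30 in leaves. The leaf arrays were all dim and stem was at least 1.30-fold higher (adjusted p = 0.0391), a call lost without leaf GC 1, leaf GH 2 or any 1 stem array (adjusted p up to 0.293). Leaving out leaf GC 1 brought the fitted log2 difference to 0.53, against 1.15 with it. Without the dim filter neither stem call was made (limma, adjusted p = 0.0569 for nad1 257324_at and 0.0605 for nad1 257329_at).

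The remaining nad1 probe sets showed no difference that passed. nad1 257322_at read 38.4, 32.9, 49.8 and 43.9 in flowers, 79.9, 44.7, 43.3 and 48.2 in stems, and 44.4, 50.3 and 40.2 in leaves, so that all tissues overlapped and stem GH 1 alone was high. The log2 difference was -0.13 in flower against leaf (95% interval -0.72 to 0.46, adjusted p = 0.75) and 0.23 in stem against leaf (-0.36 to 0.82, adjusted p = 0.533). nad1 257327_at was dim throughout, between 2.06 and 20.1.

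Agreement between nad1 probe sets was partial. Over the 11 arrays the 15 pairs of tested nad1 probe sets had Pearson correlations of log2 signal from 0.17 to 0.79 (median 0.66), against a median of 0.48 over all 120 pairs of tested nad and ccb probe sets. After each tissue's mean was removed, the nad1 median was 0.27 and the median over all pairs was 0.17. These correlations are descriptions over arrays that share scaling and labelling, and which part of the split nad1 transcripts each probe set covers is not given in the sources used here.

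For the peripheral-arm gene nad9 no tissue difference passed the test. Its signals were 75.9, 94.4, 83.7 and 51.6 in flowers, 67.8, 59.7, 54.2 and 64.8 in stems, and 62.9, 58.6 and 55.5 in leaves. The stem and leaf ranges overlapped, and flower spread around both. The log2 difference was 0.37 in flower against leaf (95% interval -0.09 to 0.84, adjusted p = 0.192) and 0.09 in stem against leaf (-0.37 to 0.56, adjusted p = 0.759). nad7, the other peripheral-arm gene, was dim on every array, between 1.75 and 22.8. nad2 was dim as well, between 0.65 and 22.7, and the highest of its values came from stem GH 1.

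Among the cytochrome c maturation genes, ccb452 and ccb382 rose in flower and ccb452 in stem. ccb382, ccb452 and ccb203 encode parts of the CcmF heme lyase, which joins heme to the apocytochrome, and ccb206 encodes CcmB, a membrane subunit of an ABC transporter in the same pathway. Signals of ccb452 were 151, 164, 147 and 150.2 in flowers, 209.6, 150.5, 114 and 152 in stems, and 89.7, 125 and 65.9 in leaves. All flower arrays lay above the leaf arrays, within a narrow range, and stem GC 1 fell below leaf GH 2. ccb452 was 1.76-fold higher both in flower than in leaf (0.82 ± 0.20, adjusted p = 0.00757) and in stem than in leaf (0.82 ± 0.20, adjusted p = 0.00670). The flower call was lost without leaf GC 1 (adjusted p = 0.0540, highest of the 11 such fits), and the stem call was kept in each such fit. Within the GH arrays neither call was made (limma, 0.57, adjusted p = 0.158, in flower and 0.75, adjusted p = 0.0736, in stem). Leaving out leaf GC 1 and stem GH 1 at once also ended the stem call (0.46, adjusted p = 0.141).

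Signals of ccb382 were 137, 308, 292 and 129 in flowers, 113, 185, 185 and 123 in stems, and 97.9, 131 and 61.7 in leaves. Flower arrays fell into a low pair, GH 1 and GC 2, and a high pair, GH 2 and GC 1, and the low pair reached the level of leaf GH 2. ccb382 was 2.22-fold higher in flower than in leaf (1.15 ± 0.36, adjusted p = 0.0278) and did not pass in stem (0.71, 95% interval -0.08 to 1.5, adjusted p = 0.143). The flower call was lost without leaf GC 1, leaf GH 1, flower GC 1 or flower GH 2 (adjusted p up to 0.164).

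ccb203, called lower in flower than in stem, entered the tests only through 3 stem arrays above the dim limit, so the filter itself favoured stem above flower and the call is given as a description. Its signals were 3.23, 22.0, 2.37 and 10.9 in flowers, 32.2, 16.1, 29.0 and 37.4 in stems, and 16.5, 5.08 and 14.3 in leaves. All flower and leaf arrays were dim, 3 of 4 stem arrays stood just above the limit, and stem GH 2 lay within the flower range. The mean was 9.63 ± 9.10 in flower against 28.7 ± 9.08 in stem (SD, n = 4 each, adjusted p = 0.0450, limma), and no fold is given because the bound falls under 1. It was not called without the filter (adjusted p = 0.05005) or with signals floored at the dim limit (-0.16, adjusted p = 0.219). The call was also lost in 7 of 11 fits with 1 array left out, those without leaf GC 1, leaf GH 1, flower GC 1, flower GH 1, stem GC 1, stem GC 2 or stem GH 1 (adjusted p up to 0.123).

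For ccb206 no tissue difference passed. Its signals were 53.2, 55.0, 42.4 and 77.9 in flowers, 68.8, 53.3, 63.1 and 61.1 in stems, and 40.5, 46.0 and 50.2 in leaves. Stem arrays all lay above leaf arrays, but the difference of 0.42 did not pass (95% interval -0.09 to 0.92, adjusted p = 0.176). Flower overlapped leaf, with a difference of 0.28 (-0.23 to 0.78, adjusted p = 0.379) that turned to -0.02 with quantile normalization.

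Over the tested probe sets, 7 of 16 were higher in flower than in leaf and 0 were lower (limma, adjusted p under 0.05), where 21.3% of all 15718 probe sets were higher and 14.4% lower. At an unadjusted p under 0.05 the same 7 passed, where 44.8% of all probe sets did in either direction, a share no lower than that of the 16. The 7 belonged to 6 genes: nad1, nad4, nad5, nad6, ccb382 and ccb452. Of the 7 probe sets above the dim limit on every array, 4 were higher (18.6% of all such probe sets), and without the filter 7 of all 19 were higher (14.9% of all probe sets). In 5 of the 16 the flower arrays all lay above the leaf arrays (27.6% of all probe sets). The median log2 difference was 0.73, against 0.16 over all tested probe sets, and 14 of the 16 were positive (12 with quantile normalization). Quantile normalization set the median over all probe sets to -0.0017 and that of the 16 to 0.36. Over all probe sets the split was 3354 higher and 2263 lower, and 2650 higher and 2699 lower when arrays were centred on their 75th percentile. Within the GH arrays alone 3 of the 16 were called, and within the GC arrays 5. Counts fell to 4 without leaf GC 1, without leaf GH 1 or without flower GH 2.

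In stem against leaf, 10 of 16 probe sets were higher and 0 were lower, where 17.9% of all tested probe sets were higher and 21.6% lower. They belonged to 5 genes: nad1, nad4, nad5, nad6 and ccb452. Of the 7 probe sets never dim, 3 were higher (19.1% of all such probe sets), and without the filter 7 of all 19 were higher (12.5% of all probe sets). In 11 of the 16 the stem arrays all lay above the leaf arrays (18.9% of all probe sets), and in 5 the leaf arrays were all dim. The median log2 difference was 0.95, against -0.07 over all tested probe sets, and all 16 were positive, also with quantile normalization and with centring on the 75th percentile. The count was 2 within the GH arrays and 4 within the GC arrays. It was 5 without leaf GC 1, 6 without leaf GH 1, leaf GH 2, stem GC 2 or stem GH 1, and 3 when leaf GC 1 and stem GH 1 were both left out.

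**Figure D2:**
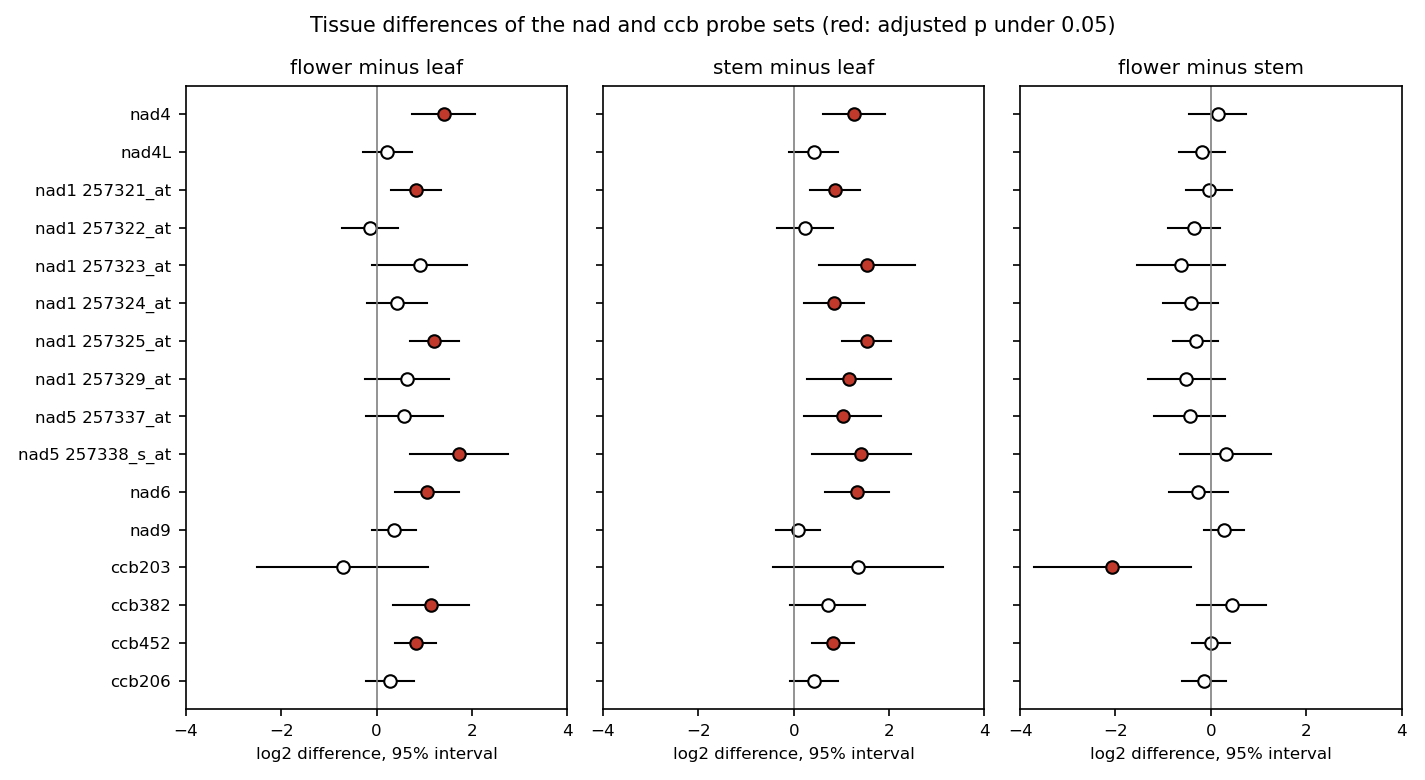
Log2 differences of the 16 tested nad and ccb probe sets with 95% intervals, for flower minus leaf, stem minus leaf and flower minus stem. Red points passed an adjusted p of 0.05 (limma), 7, 10 and 1 of the 16 in that order of panels. Differences for probe sets dim on every array of a tissue are fitted values and not bounds, and in flower minus leaf nad4L and ccb206 turn below 0 with quantile normalization.

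The comparisons of flower and of stem with leaf share the leaf arrays. Side by side, 6 probe sets of 5 genes were higher in both (nad1 257321_at, nad1 257325_at, nad4, nad5 257338_s_at, nad6 and ccb452), where 9.23% of all tested probe sets were. ccb382 was called in flower only, and nad1 257323_at, nad1 257324_at, nad1 257329_at and nad5 257337_at in stem only. None of these 5 was called between flower and stem, except nad1 257323_at with signals floored at the dim limit and nad1 257324_at with quantile normalization. ccb203, ccb206, nad4L and nad9 were called in neither.

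Flower and stem, collected at the same age, differed for 1 of 16 probe sets, ccb203, lower in flower, where 25.5% of all tested probe sets were higher and 15.4% lower. Without the filter 0 of all 19 were called (10.4% of all probe sets were lower). Among the 16, only nad1 257323_at had all flower arrays below all stem arrays (13.8% of all probe sets), and its difference of -0.63 did not pass (95% interval -1.55 to 0.29, adjusted p = 0.255). Floored at the dim limit it did pass (-0.52, adjusted p = 0.00842), the only call of the 16 at that setting. The median log2 difference of the 16 was -0.22, against 0.17 over all tested probe sets. nad4 differed by 0.14 (-0.45 to 0.74, adjusted p = 0.708), nad4L by -0.19 (-0.66 to 0.29, adjusted p = 0.522) and ccb382 by 0.44 (-0.29 to 1.16, adjusted p = 0.322). The 6 probe sets called against leaf in both tissues were picked for a low leaf signal, so leaf averaging below flower and stem follows from that choice. Some of them were dim on every leaf array and passed the filter through flower and stem arrays alone. For these 6 no difference between flower and stem passed. With quantile normalization 4 of the 16 were lower in flower, ccb203 and also nad1 257322_at, nad1 257324_at and nad1 257325_at (adjusted p from 0.0393 to 0.0472). Over all probe sets 4008 were higher and 2413 lower in flower, against 3172 and 2959 with quantile normalization and 3200 and 3056 with centring on the 75th percentile.

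No tested nad or ccb probe set was called between GH and GC arrays. Over the tissues 0 of 16 passed (limma), where 0.00636% of all tested probe sets did, and 1 of 16 at an unadjusted p under 0.05, where 10.3% did. The smallest adjusted p was 0.469, for ccb452 (0.36 ± 0.16, GH over GC), with a mean of 148 on GH arrays and 126 on GC arrays. Within flower 0 of 16 passed (0 at an unadjusted p under 0.05), where 0.0254% of all probe sets did (4.85% unadjusted), and within stem 0 of 16 (0 unadjusted), where 0.0827% did (11.6% unadjusted). The interaction of code and tissue, the GH effect in flower minus that in stem, passed for 0 of 16 (0 unadjusted) and for 0% of all probe sets (4.84% unadjusted). The log2 differences over the tissues ranged from -0.13 (nad5 257338_s_at) to 0.67 (nad1 257323_at, 95% interval -0.12 to 1.47), and that of nad4L was 0.35 (-0.07 to 0.76). With 2 arrays of a code in a tissue, intervals were wide, as for nad4 within flower (0.18, -0.72 to 1.07) and within stem (-0.17, -1.07 to 0.72).

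Averaged over the tested nad and ccb probe sets, the leaf arrays lay below all flower and stem arrays, and flower and stem overlapped. Of the 16, 5 had every leaf array dim and passed through flower or stem arrays alone. The filter thus favoured a low leaf mean, which is given as a description. The mean log2 signal of the 16 was 5.48 to 6.05 in flower, 5.83 to 6.18 in stem and 4.86 to 5.16 in leaf, with the lowest value on leaf GC 1 and the highest on stem GH 1. The 69 plastid-encoded probe sets naming 1 gene also varied, from 8.56 to 9.15 in flower, 9.15 to 9.83 in stem and 7.95 to 9.34 in leaf. The probe set for 5S ribosomal RNA read 78.1 to 139 in flower, 49.4 to 196 in stem and 1.73 to 6.47 in leaf. The part of these differences in the nad and ccb results was not tested. With the mean log2 3′ over 5′ ratio as a covariate, 6 nad and ccb probe sets were called in flower against leaf and 6 in stem against leaf. In whole organs fewer mitochondrion-rich cells and less RNA per cell cannot be told apart, and whether the signals follow transcript amount was not tested.

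**Figure D3:**
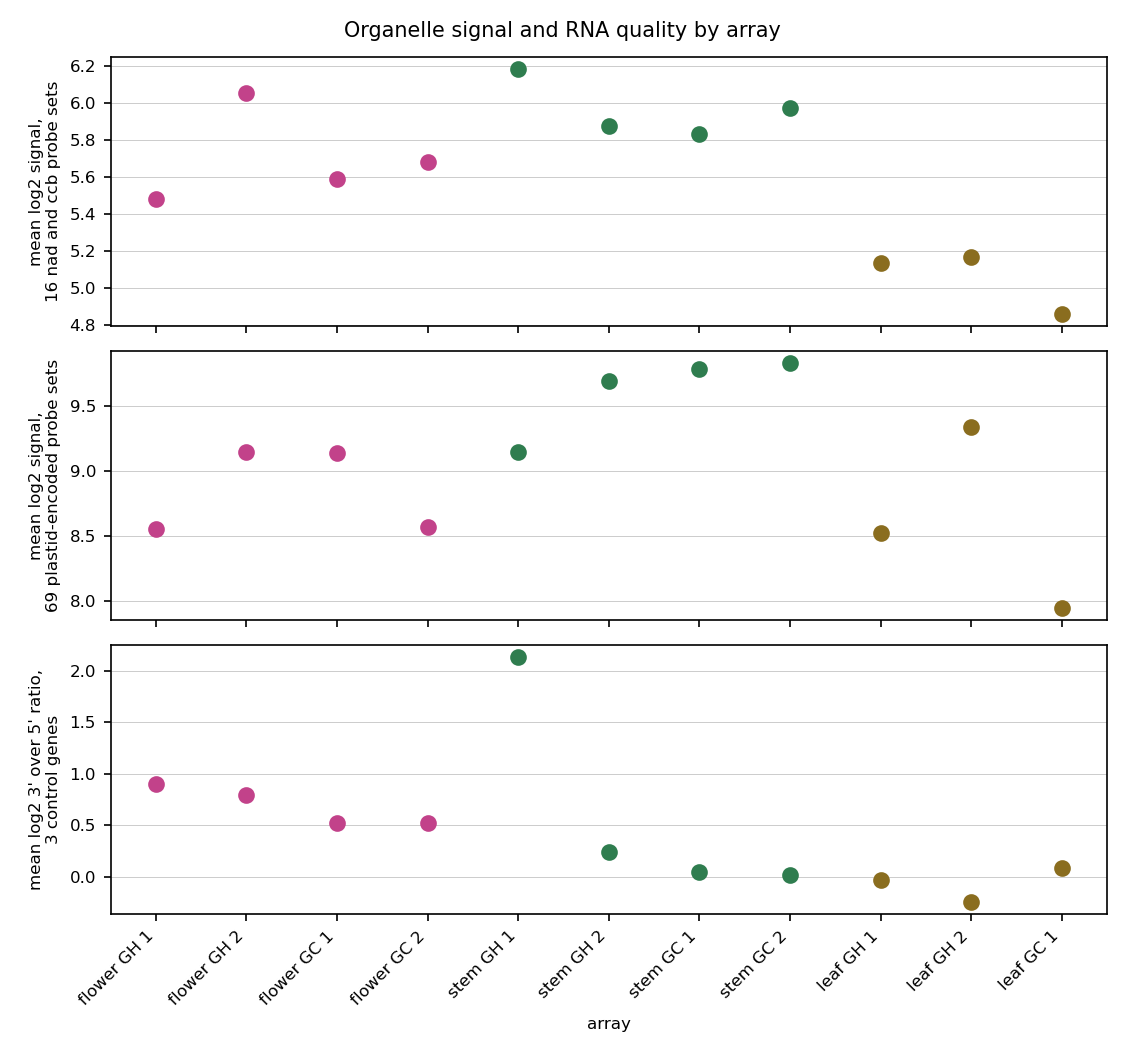
By array (flower, stem, leaf, with GH left of GC), the mean log2 signal of the 16 tested nad and ccb probe sets, the mean log2 signal of the 69 plastid-encoded probe sets, and the mean log2 3′ over 5′ ratio of 3 control genes. The leaf arrays are lowest for the nad and ccb mean, at 4.86 to 5.16, and stem GH 1 is highest there and in the 3′ over 5′ ratio, at 2.13. Of the 16, 5 had every leaf array dim, so the filter favoured a low leaf mean.

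Of the 3 other mitochondrion-encoded genes tested on probe sets naming 1 gene, 2 were higher in flower and 1 in stem than in leaf, where 21.3% and 17.9% of all tested probe sets were. cox1, a core subunit of cytochrome c oxidase, averaged 150 ± 40.3 in flower, 128 ± 32.0 in stem and 74.7 ± 8.41 in leaf (SD, n = 4, 4 and 3). It was higher in flower (0.98 ± 0.24, adjusted p = 0.00792) and in stem (0.76 ± 0.24, adjusted p = 0.0265) than in leaf. cox2, another subunit of that oxidase, was higher in flower (0.96 ± 0.27, adjusted p = 0.0151) and averaged 83.4 ± 11.8 there against 46.5 ± 18.6 in leaf. The stem call of cox1 was lost without leaf GH 1, leaf GH 2, stem GC 1 or stem GH 1 (adjusted p from 0.0557 to 0.0944), and the flower call of cox2 without leaf GC 1 (0.12). Quantile normalization also ended the flower call of cox2 (limma, 0.71, adjusted p = 0.0531). orfX, listed in RefSeq as mttB, did not pass in either (0.54 in flower, 0.66 in stem). matR, a maturase gene that lies in an intron of nad1, was dim on 9 of 11 arrays and was not tested. No gene on a list of mitochondrion-encoded ATP synthase subunits had a probe set naming 1 gene.

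Probe sets naming a mitochondrial gene together with another gene, the 2 with nad1 among them, were kept apart for naming several genes. Most pair it with a chromosome 2 locus, and chromosome 2 of Columbia-0 carries a copy of mitochondrial DNA. The probe set for rps3 and rpl16 names 2 mitochondrial genes. Of 11 tested probe sets naming several loci, 6 were higher in flower and 7 in stem than in leaf (21.3% and 17.9% of all tested probe sets). None of them, 0 of 11, was lower in either (14.4% and 21.6%). Of the 69 plastid-encoded probe sets 12 were higher and 9 lower in flower than in leaf, counts near or under the same shares over all probe sets. In stem 29 of the 69 were higher and 1 lower than in leaf, where 17.9% and 21.6% of all probe sets were. Between flower and stem 25 of the 69 plastid-encoded probe sets were lower in flower, against 1 of 16 nad and ccb probe sets and 15.4% of all tested probe sets. The difference between the sets was not tested.

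Nuclear genes supply most subunits of complex I. Of a list of 39 nuclear loci for complex I subunits, 25 had a tested probe set naming 1 gene. In flower against leaf 7 of the 25 were higher and 3 lower, near the shares over all tested probe sets (21.3% higher and 14.4% lower). In stem against leaf 8 were higher and 0 lower, where 17.9% and 21.6% of all tested probe sets were. Their median log2 differences were 0.16 in flower and 0.17 in stem, against 0.16 and -0.07 over all tested probe sets. The locus AT5G18800 averaged 317 ± 37.4 in flower, 281 ± 25.0 in stem and 174 ± 28.3 in leaf, 1.84-fold and 1.64-fold above leaf (adjusted p = 0.00102 and 0.00364). AT1G76200 was higher by 0.65 in flower and 0.81 in stem (adjusted p = 0.00971 and 0.00220). AT3G62790 and AT4G20150 were higher by 0.72 and 0.73 in stem (adjusted p = 0.00113 and 0.00274). Within the GC arrays, with 1 leaf array, these differences were smaller. AT5G18800 differed there by 0.51 in flower and 0.36 in stem, and AT1G76200 by 0.47 in both. AT3G62790 and AT4G20150 differed there by 0.67 and 0.57 in stem. The flower call of AT1G76200 was lost within the GH arrays (limma, 0.72, adjusted p = 0.0571). AT3G03070 was lower in flower than in leaf (-0.49 ± 0.11, adjusted p = 0.00555) and than in stem (-0.34 ± 0.10, adjusted p = 0.0227), the only one of the 25 called between flower and stem (15.4% of all tested probe sets were lower in flower). That second call was lost without flower GC 2, flower GH 1, flower GH 2 or stem GC 1 (adjusted p from 0.0503 to 0.0526). Quantile normalization also ended it (limma, -0.16, adjusted p = 0.223), as did moderation without the trend (adjusted p = 0.0520). Within the GH arrays neither call of AT3G03070 was made (-0.48, adjusted p = 0.0776, against leaf and -0.38, adjusted p = 0.158, against stem).

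**Figure D4:**
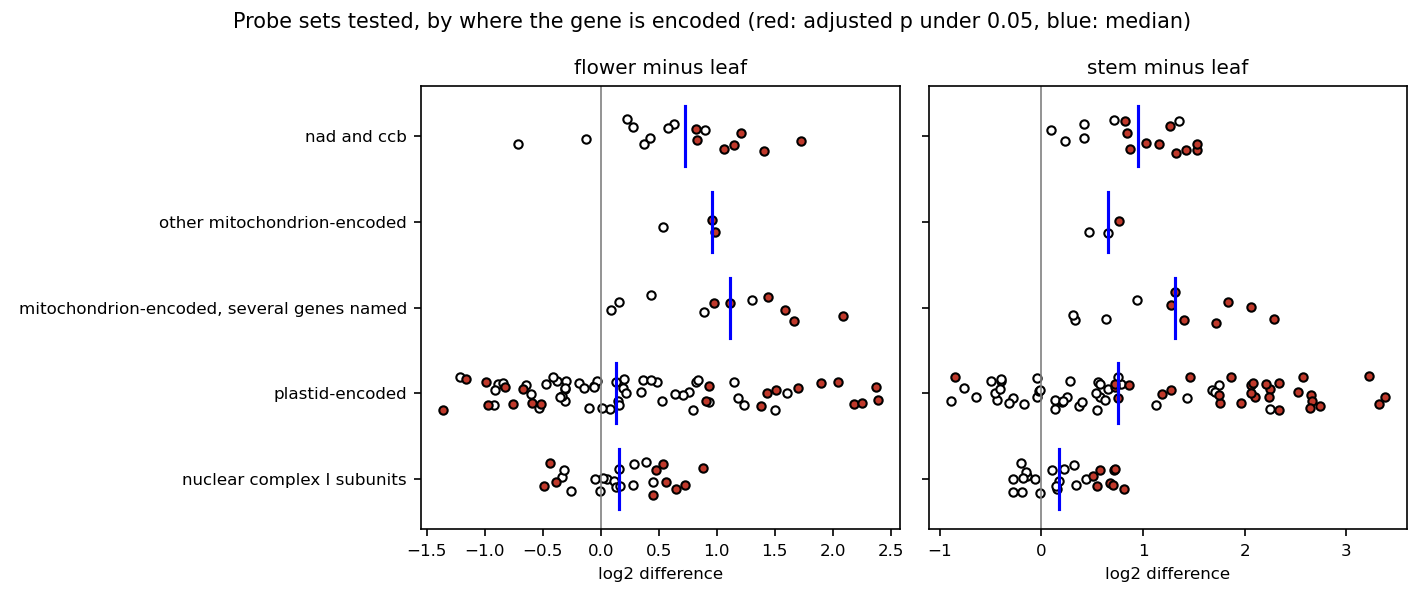
Log2 differences of tested probe sets in flower minus leaf and stem minus leaf, by where the gene is encoded. Each point is 1 probe set (16 nad and ccb, 3 other mitochondrion-encoded, 11 naming several genes, 69 plastid-encoded, 25 nuclear complex I), red points passed an adjusted p of 0.05 (limma), and blue lines are medians. The median is 0.73 and 0.95 for nad and ccb and 0.16 and 0.17 for the nuclear list, and the flower median of nad and ccb is 0.36 with quantile normalization.

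Of 7 nuclear loci listed for cytochrome c maturation, cytochrome c and cytochrome c1, 4 were tested. CYTC-1, a cytochrome c gene, was higher in flower (0.57 ± 0.14, adjusted p = 0.00704) and in stem (0.39 ± 0.14, adjusted p = 0.0386) than in leaf. AT5G40810 was lower in flower (-0.74 ± 0.18, adjusted p = 0.00640) and in stem (-0.68 ± 0.18, adjusted p = 0.00933). CYTC-2 and AT3G27240 did not pass in any tissue comparison. The stem call of CYTC-1 was lost without any 1 leaf array, without flower GH 1, without stem GC 1 or without stem GH 1 (adjusted p from 0.0546 to 0.111). The stem call of AT5G40810 was lost without leaf GH 1 (adjusted p = 0.0513), and neither of its calls was made within the GC arrays, where its log2 differences were -0.25 in flower and -0.38 in stem against leaf (adjusted p = 0.533 and 0.316).

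Among nuclear genes for organelle transcription and RNA processing, few had a probe set naming 1 gene. AT5G15700, on the list of mitochondrial RNA polymerases, was dim on all 4 stem arrays (6.75 to 8.54), against 22.3 to 42.7 in leaf, at least 1.17-fold lower in stem (adjusted p = 0.0142). That call was lost without leaf GC 1 (adjusted p = 0.110) or leaf GH 1 (0.0657). It was also lost with signals floored at the dim limit (limma, -0.33, adjusted p = 0.0705). In flower the difference of the same locus did not pass (adjusted p = 0.0850). Of 59 symbols listed for editing, splicing and end-processing of mitochondrial transcripts, OTP87 was tested and passed nowhere, and OTP43 was not tested.

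The probe sets most like each nad and ccb probe set were ranked by Pearson r of log2 signal over the 11 arrays, among 8567 candidates naming 1 gene. nad4 was closest to plastid-encoded psbA, for the D1 protein of photosystem II (r = 0.97, and 0.94 after each tissue's mean was removed). The probe set nad1 257321_at was closest to psbA too (r = 0.93, and 0.75 after that removal). nad1 257323_at was closest to plastid-encoded ndhH, for a subunit of the chloroplast NDH complex (r = 0.96, and 0.95 after removal). ccb382 was closest to plastid-encoded rpoC1, for a subunit of the plastid RNA polymerase (r = 0.91, and 0.89 after removal). All other tested nad and ccb probe sets were closest to nuclear genes. Of these, nad4L was closest to AT2G24660 (r = 0.95, and 0.94 after removal) and ccb452 to AT5G48800 (r = 0.95, and 0.90). nad6 was closest to AT5G63640 (r = 0.96, and 0.80 after removal). ccb203, above the dim limit on only 3 arrays, was closest to AT4G05060 (r = 0.91, and 0.85 after removal). These are the highest of many values over arrays that share scaling, and they are given as descriptions.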

How the data were processed

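The deposited table holds MAS5 signals (intensity on a linear scale) for Affymetrix ATH1 arrays, per the submitters' processing notes. Its version and scaling target are not given in those notes, and detection calls were not used. The 2% trimmed mean was 100.01 on every array, within rounding. Genes of probe sets came from the platform annotation, and 8730 of the 22810 probe sets name no gene.

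Signals were log2-transformed without a pseudocount and filtered as described above, and 64 control probe sets were left out. limma 3.58.1 (R 4.3.3) was run on all 15718 probe sets with lmFit and eBayes with a mean-variance trend, all 11 arrays, and the GH or GC code as covariate. GH was compared with GC with tissue as covariate, and within flower and stem with 1 mean per tissue and code. P-values were adjusted by Benjamini-Hochberg over all tested probe sets. The procedure was tested on simulated data. The number of arrays limits the precision.

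Every nad and ccb member is named. For each, the most correlated probe sets were ranked, and up to 4 genes of other lists are named by adjusted p. Members, lists and tissue markers were chosen with earlier results of these data known. Alternatives covered normalization, dim filter, pseudocount, floor, moderation, covariates, single codes, and arrays left out.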

Additional observations from a re-analysis of the deposited data

Results flagged for a closer look

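In 4 of the 38 groups of 4 arrays looked at (19 probe sets in flower and in stem), 1 array lay far from the other 3 of its tissue, by a gap above the 95% critical value of Dixon's test. Chance gives such a gap in about 1 of 20 groups. nad1 257324_at read 53.7 on flower GC 2, against 33.9 to 37.2 on the other flower arrays. The other 3 values came from stem GH 1. nad1 257322_at read 79.9 there, against 43.3 to 48.2 on the other stem arrays, nad4L read 48.9 against 40.2 to 41.5, and nad2 read 22.7, below the dim limit, against 1.79 to 4.23. Stem GH 1 is also the array with an actin 3′ to 5′ ratio of 19.6, and the part of that ratio in these 3 values was not tested.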

How the results depend on the processing

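Of the 18 calls on nad and ccb probe sets, 1 held under every alternative (nad1 257325_at, stem against leaf) and 0 changed direction. Of 33 differences not called, 26 were called under no alternative. With 1 array left out, calls among the 16 ranged from 4 to 7 in flower against leaf, 5 to 10 in stem against leaf, 0 to 1 in flower against stem, and were 0 between GH and GC in each of the 4 tests. Within the GH arrays they were 3, 2 and 0 in those 3 tissue comparisons, and within the GC arrays 5, 4 and 0. They were 5, 4 and 0 with a dim limit at the 60th percentile (63.4), 7, 7 and 0 without a filter, 5, 10 and 4 with quantile normalization, 6, 6 and 1 with the 3′ over 5′ ratio as covariate, 5, 3 and 0 with leaf GC 1 and stem GH 1 both left out, and 7, 7 and 0 with the compared tissues alone. The stricter limit left fewer probe sets to test, and some of these runs used fewer arrays. The cause of the moves was not tested.

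Over all probe sets, calls numbered 2612 in flower against leaf and 3027 in stem against leaf within the GC arrays (5617 and 6222 in all), and in flower against stem 2976 within the GH and 4257 within the GC arrays (6421 in all). With 1 array left out they ranged from 4407 to 6288, 4923 to 6247 and 5368 to 6579. Calls between GH and GC over the tissues ranged from 0 to 13 with 1 array left out (13 without leaf GC 1). They were 0 with centring on the 75th percentile, without the trend or without a covariate, and 16 with leaf GC 1 and stem GH 1 both left out. Within flower they ranged from 0 to 10, and were 9 with a pseudocount, 1 without the trend and 0 with both arrays left out. Within stem they ranged from 2 to 1155, the highest without stem GH 2, which leaves stem GH 1 as the lone GH array, assumed to vary like the other groups. They were 8 with quantile normalization, 6 with a pseudocount, 0 with a floor at the dim limit, 30 with the 3′ over 5′ ratio and 39 with both arrays left out. The interaction gave 0 to 210, again highest without stem GH 2, and 4 without the trend.

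Differences that turned sign were all not called. In flower against leaf, quantile normalization gave -0.018 for ccb206 and -0.10 for nad4L, and the floor gave -2.9e-05 for nad1 257323_at. nad1 257322_at was 0.22 within the GC arrays and -0.23 to 0.017 with 1 array left out. nad1 257329_at was -0.22 within the GH arrays and -0.037 with both arrays left out. In stem against leaf, nad1 257322_at was -0.055 with the 3′ over 5′ ratio, -0.23 with both arrays left out and -0.020 to 0.34 with 1 left out. In flower against stem, nad4 was -0.0046 with centring on the 75th percentile, -0.032 within the GC arrays and -0.071 to 0.33 with 1 array left out. ccb452 was 0.17 within the GC arrays, 0.13 with both arrays left out and -0.094 to 0.10 with 1 left out. Within the GC arrays nad1 257321_at was 0.14 and nad1 257322_at 0.034, and within the GH arrays nad4L was 0.021. With 1 array left out, nad1 257321_at ranged from -0.15 to 0.17, nad5 257338_s_at from -0.13 to 0.64 and ccb206 from -0.30 to 0.032.

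The replicate numbers of the titles did not pair the samples: over 10 pairs of groups, deviations of samples with the same number correlated between -0.07 and 0.07, 0 of them over 0.1. With the replicate block, calls among the 16 were 7 in flower against leaf, 8 in stem against leaf and 0 in flower against stem, and over all probe sets 0 between GH and GC over the tissues and 13 within flower.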
